A study of Mus musculus with 18 samples.

Results

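miR-22-3p (mmu-miR-22-3p in the table) is the main mature product of the mouse Mir22 hairpin, and its level was followed in small RNA of C2C12 cells, a mouse myoblast line whose cells fuse into myotubes when serum is lowered. It is 1 of the 2042 miRNA names in the table and was found there under its own name. It was chosen because its ratio of MRTF-A bait to MS2 control lay on opposite sides of 1 in differentiated and undifferentiated cells. The 12 eluate libraries therefore chose it, and their values are given as a description without a test. The 6 input libraries played no part in that choice, and the input comparison was tested.

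The 6 groups held 3 libraries each. The assay, miTRAP, immobilises a bait RNA, incubates it with lysate and recovers the RNA that stays bound. The bait was the 3'UTR of MRTF-A (gene Mrtfa), a coactivator of serum response factor (SRF), and the control was the MS2 RNA without that 3'UTR, as far as the labels name it. Eluates of the bait, eluates of the control and input RNA of the lysate were each made from cells differentiated for 7 days (2% horse serum) and from undifferentiated cells (10% fetal calf serum). Undifferentiated samples bear the treatment wording of the differentiated ones, and their state was therefore read from the titles. C2C12 is 1 cell line, and nothing in the labels states that replicates were separate cultures, so a p-value reflects library spread alone, possibly technical. The letters A, B and C name the libraries of each group by column position.

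miRNAs guide Argonaute proteins to messenger RNAs, mostly through pairing of bases 2 to 8, the seed, with sites in 3'UTRs. miR-22 is expressed in many tissues and is abundant in heart and skeletal muscle. In mouse heart it is known to act in hypertrophic growth, with Sirt1 and Hdac4 among its targets, and to repress Purb, itself a repressor of SRF-dependent genes.

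The mature sequences below, from RefSeq on GRCm38.p6, show which arm was counted, with the seed in capitals. The hairpin that holds both arms lies at chr11:75463716-75463810 on the plus strand, inside exon 2 of both annotated transcripts of the non-coding host gene Mir22hg (ENSMUSG00000085148.1, GENCODE vM21).
miR-22-3p: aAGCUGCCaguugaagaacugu
miR-22-5p: aGUUCUUCaguggcaagcuuua
In the hairpin below, the capitals mark the 5p arm and then the 3p arm.
Mir22 hairpin: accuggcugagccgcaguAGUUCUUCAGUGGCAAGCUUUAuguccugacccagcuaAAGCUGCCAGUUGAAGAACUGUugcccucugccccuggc
No other mouse miRNA among the RefSeq sequences shared bases 2 to 8, or bases 2 to 7, with miR-22-3p. Of the 2042 names counted, 1603 had a RefSeq sequence under that name, and the seeds of the others were not checked by name.

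The sense strand of the Mrtfa 3'UTR was searched for matches to that seed, in the longest annotated form (1004 bases, GENCODE vM21, GRCm38). It held no GGCAGCT, the match to bases 2 to 8, in any of its 4 annotated forms. The same 7 letters stood in 12.8% of the longest 3'UTRs of 21020 genes, and in 10.4% of 10216 windows of 1004 bases cut from the start of longer 3'UTRs. Of 1603 miRNA names with a RefSeq sequence, 158 (9.86%) had a match to their own bases 2 to 8 in the Mrtfa 3'UTR. The shorter GCAGCT, the match to bases 2 to 7, which lies within GGCAGCT, was present 1 time, and GCAGCT stood in 30.7% of the equally long windows. GCAGCTA, the same 6 letters followed by A, was not found in the Mrtfa 3'UTR and stood in 5.57% of the windows. The 6-letter match, shown because it is the only one found, starts at base 632 of the 3'UTR, at chr15:81012648-81012653 on the minus strand, with the match in capitals.
Mrtfa 6-mer match: caacctggcatGCAGCTgccc
A match is a description of letters and not a binding site, and the bait's own sequence is not given in the sources used here.

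Depth differed between the kinds of library. Inputs held 294112 to 860828 reads, bait eluates 107165 to 544504 and control eluates 15562 to 39695. miR-22-3p had 8411 to 32778 reads in each input, 91 to 3575 in each bait eluate and 75 to 339 in each control eluate. Values are in CPM as normalised by the authors, which relate reads to an effective library size. That size was 0.341 to 0.634 times the read total in bait eluates, 1.24 to 2.37 times in control eluates and 0.701 to 1.48 times in inputs, so CPM and the plain share of reads differ most between bait and control. The control eluates came in different kinds. Human-named miRNAs took 0.0900 to 0.115% of reads in differentiated library C and undifferentiated libraries B and C, and 0.755 to 0.930% in differentiated A and B and undifferentiated A. Myogenic differentiation was visible in the inputs, where 7 of 7 myomiRs on the list had reads and summed to 70292 to 95961 CPM in differentiated cells, against 2620 to 7345 CPM in undifferentiated cells, where miR-1a-3p, miR-208b-3p and miR-499-5p had 0 reads. Of markers of other cell types, blood miRNAs summed to at most 4.30 CPM and epithelial ones to at most 85.3 CPM in any input. Only 4 of the 6 blood miRNAs listed were among the names counted, so the blood sum covers those alone. miR-124-3p had 0 reads in both input groups. Both arms of miR-126a had 0 reads in differentiated input but had reads in undifferentiated input. Neural markers summed to 1867 to 2568 CPM in differentiated and 947 to 1552 CPM in undifferentiated input. Most of the differentiated sum was miR-128-3p (1792 to 2510 CPM), whereas miR-129-5p had means of 27.6 CPM in differentiated and 657 CPM in undifferentiated input. Endothelial and smooth muscle markers summed to 23202 to 52914 CPM and 27373 to 28120 CPM. Nearly all of this was miR-143-3p (23079 to 52760 CPM and 27193 to 28009 CPM). miR-128-3p and miR-143-3p also stand on the list of heart and skeletal muscle miRNAs used below. The part of these markers in the miR-22-3p values was not tested.

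In the inputs miR-22-3p was among the most abundant miRNAs and rose with differentiation. It stood at 59220, 61587 and 45132 CPM in differentiated inputs A, B and C, against 25613, 24361 and 37227 CPM in undifferentiated inputs A, B and C. The groups did not overlap, and the library nearest to the other group was undifferentiated C, the deepest of all. The means were 55313 ± 8896 CPM in differentiated and 29067 ± 7095 CPM in undifferentiated input (SD, n = 3 each), a ratio of 1.90. On the log2(CPM + 10) scale the difference was 0.94 ± 0.33 (SE), with adjusted p = 0.0257 from limma over all 313 names tested. In that comparison 62.3% of names passed the threshold of 0.05 in either direction and 16% passed as higher. The 2 groups did not overlap for 66.8% of names, so absence of overlap alone does not set miR-22-3p apart. In bulk lysate a larger share of cells with the miRNA and more of it per cell cannot be told apart.

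The call in the input was close to its threshold under the authors' scaling. It was lost without differentiated library A (adjusted p = 0.102), without differentiated B (adjusted p = 0.0948), without undifferentiated A (adjusted p = 0.0552) and without undifferentiated B (adjusted p = 0.0721) in limma, with values between 0.83 and 0.89. As a share of all reads the separation was wider, at 8.05, 7.08 and 6.68% of reads in differentiated inputs A, B and C, against 2.86, 2.49 and 2.61% in undifferentiated inputs A, B and C. The shares averaged 7.27 ± 0.70% in differentiated and 2.65 ± 0.19% in undifferentiated input (SD, n = 3 each), 2.74 times as much. With library totals as the scale the log2 difference was 1.45 (adjusted p = 0.000261, limma), and edgeR and DESeq2 on recovered reads gave 1.65 (adjusted p = 0.000155) and 1.63 (adjusted p = 1.35e-08). The authors' deposited table lists a log2 fold change of 0.93 at a false discovery rate of 0.0356.

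The median of all names in the input was -0.64 under the authors' scaling, so miR-22-3p stood 1.58 above it and ranked 43 of 313 from the highest. Relative to the median, miR-22-3p stood 1.68 higher with library totals, 1.68 with RLE factors and 1.68 with TMM factors fitted to inputs alone. The split of calls over all names moved with the scale, at 50 higher and 145 lower with the authors' scaling, 75 higher and 100 lower with library totals, 88 each with RLE factors, and 90 higher and 86 lower with TMM factors fitted to inputs alone.

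**Figure D1:**
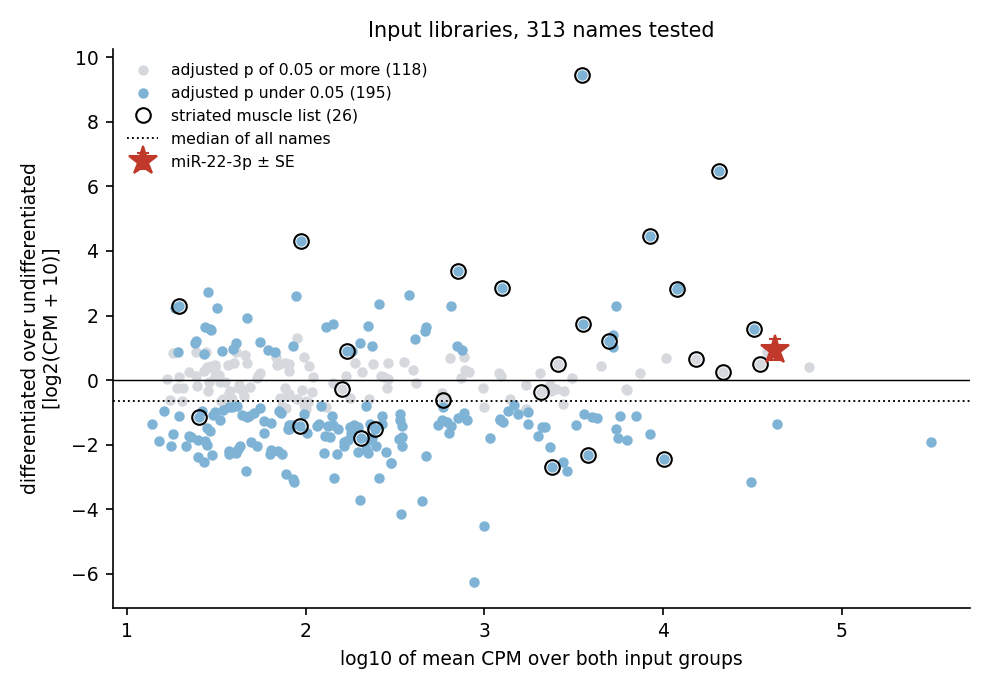
Change of each of 313 names in the input libraries, differentiated over undifferentiated on the log2(CPM + 10) scale, against the log10 of its mean CPM over both groups (n = 3 libraries each). Circled points are the 26 tested names of the striated muscle list, the star with its SE bar is miR-22-3p at 0.94, and the dotted line is the median of all names at -0.64.

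By abundance miR-22-3p ranked 3 in differentiated and 5 in undifferentiated input by mean CPM. In differentiated input the names above it were miR-21a-5p, abundant in many dividing cells, at 126893 ± 20411 CPM, and miR-6244 at 73400 ± 17603 CPM, and those below it were miR-6241 at 48476 ± 10418 CPM and miR-378a-3p, encoded in an intron of Ppargc1b, at 48166 ± 5386 CPM. Its values of 45132 to 61587 CPM overlapped those of miR-6244 (55164 to 90293 CPM), miR-6241 (37985 to 58819 CPM) and miR-378a-3p (43199 to 53891 CPM), so the order among these neighbours is within the spread. In undifferentiated input miR-22-3p lay below miR-92a-3p, a miRNA linked to cell proliferation (42937 to 71024 CPM, no overlap) and overlapped miR-6244 above it (33414 to 78042 CPM), and below it miR-6241 (15889 to 37867 CPM) and miR-143-3p (27193 to 28009 CPM).

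The 5p arm was scarce. miR-22-5p had 14, 16 and 12 reads in differentiated inputs A, B and C, against 8, 7 and 29 in undifferentiated inputs A, B and C, or 27.2 ± 2.49 and 30.6 ± 15.3 CPM (SD, n = 3 each). Its input difference was -0.07 ± 0.32 (adjusted p = 0.860, limma), so a change was not detectable at this depth, and its sign turned with library totals (0.33). Of the reads of both arms, miR-22-5p took 0.0488% in differentiated input (95% exact interval 0.0352 to 0.0660%) and 0.111% in undifferentiated input (0.0806 to 0.149%). These intervals pool the 3 libraries of a group and cover counting error only. By single library, those of undifferentiated A (0.0410 to 0.187%) and B (0.0321 to 0.164%) overlapped the interval of every differentiated library. That of undifferentiated C (0.0863 to 0.185%) overlapped only that of differentiated C (0.0295 to 0.0998%). The shares themselves did not overlap. They were 0.0434, 0.0488 and 0.0572% in differentiated inputs A, B and C, against 0.0950, 0.0798 and 0.129% in undifferentiated inputs A, B and C. These shares rest on 7 to 29 reads of miR-22-5p per library, and a shift between the arms was not tested. In the eluates miR-22-5p had 8 reads in the 3 differentiated bait libraries together and 0 in all others. The 0 of 424 reads of both arms in undifferentiated bait eluates allows a 5p share of up to 0.866% (95% exact bound), above the share in either input, so the arms could not be compared there.

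With the MRTF-A bait the level of miR-22-3p differed far more between the states than in the input. Bait eluates A, B and C held 10999, 11910 and 14339 CPM in differentiated cells, against 1395, 1587 and 1790 CPM in undifferentiated cells. The lowest differentiated library lay above the highest undifferentiated one by a wide margin, and the libraries of each state lay close together. Means were 12416 ± 1726 CPM in differentiated and 1591 ± 197 CPM in undifferentiated bait eluates (SD, n = 3 each), a ratio of 7.81, or 2.96 ± 0.15 (SE) on the log2(CPM + 10) scale. The MS2 control changed by less. Control eluates A, B and C held 4184, 6317 and 8097 CPM in differentiated cells, against 2461, 4024 and 3309 CPM in undifferentiated cells. These groups were separated only by the gap between differentiated A and undifferentiated B. Their means were 6199 ± 1959 CPM in differentiated and 3265 ± 782 CPM in undifferentiated control eluates (SD, n = 3 each), a ratio of 1.90, or 0.90 ± 0.35 (SE) in log2.

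**Figure D2:**
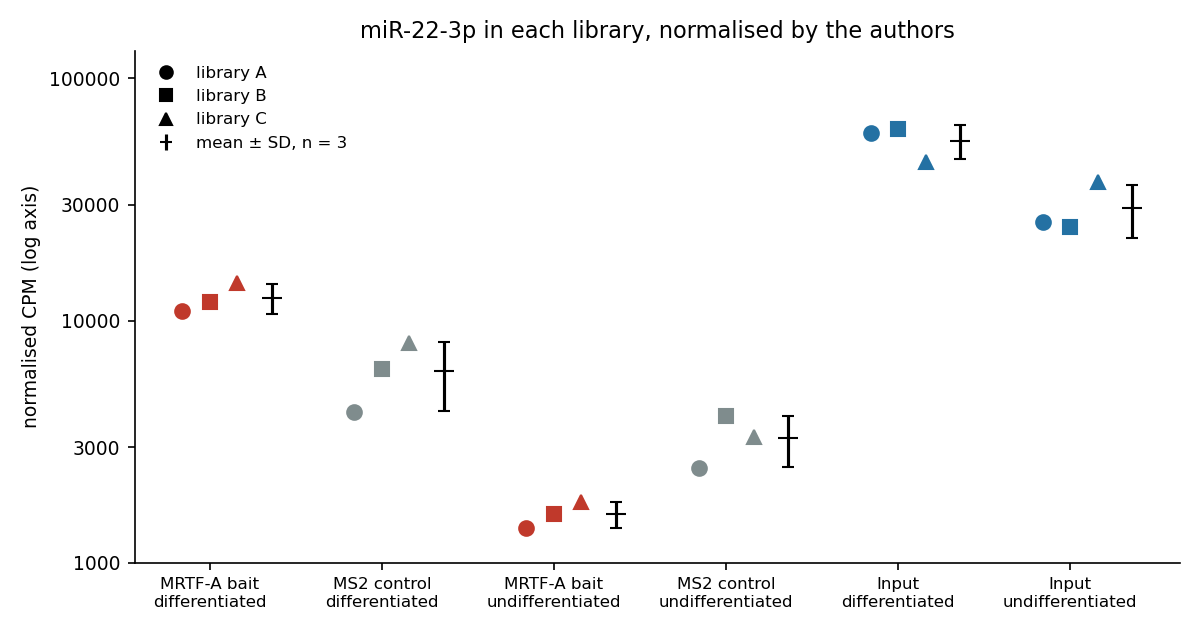
miR-22-3p in each of 18 libraries as CPM normalised by the authors, on a log axis, with the mean ± SD of each group beside its libraries (n = 3). Differentiated bait libraries (10999 to 14339) lie above the differentiated control libraries (4184 to 8097), and undifferentiated bait libraries (1395 to 1790) lie below the undifferentiated control libraries (2461 to 4024).

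Set against the control, the bait eluates of differentiated cells held 2.00 times the mean CPM of miR-22-3p, and those of undifferentiated cells 0.487 times. On the log2(CPM + 10) scale the bait minus control difference was 1.04 ± 0.30 in differentiated and -1.01 ± 0.23 in undifferentiated cells (SE), and its change between the states was 2.05 ± 0.38. In neither state did bait and control libraries overlap in CPM. The authors' deposited table lists log2 fold changes of 1.00 in differentiated and -1.05 in undifferentiated cells for the same pair of groups. These values are those the miRNA was chosen by. The change of sign was shared by 23 of 169 names kept in the eluates (13.6%), 17 of them in the direction of miR-22-3p (10.1%). Some of the 17 had few reads in undifferentiated eluates, such as miR-133b-3p (1 bait and 1 control read) and miR-128-3p (0 and 2).

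The sign in differentiated cells depended on how libraries were scaled. As a share of reads miR-22-3p took 0.610, 0.657 and 0.910% in differentiated bait eluates A, B and C, against 0.558, 0.785 and 1.92% in differentiated control eluates A, B and C. These shares overlapped, with means of 0.725 ± 0.161% for the bait and 1.09 ± 0.730% for the control (SD, n = 3 each). In undifferentiated cells the shares were 0.0849, 0.0542 and 0.101% in bait eluates A, B and C, against 0.365, 0.854 and 0.636% in control eluates A, B and C, and did not overlap. With library totals the log2 difference of bait minus control was -0.40 in differentiated cells, opposite in sign to the authors' scaling, and -2.90 in undifferentiated cells. With RLE factors of the eluates it was 0.38 in differentiated cells. The change between the states kept its direction under each of these scalings, at 2.50 with library totals, 1.67 with RLE factors and 2.33 with TMM factors of the eluates.

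**Figure D3:**
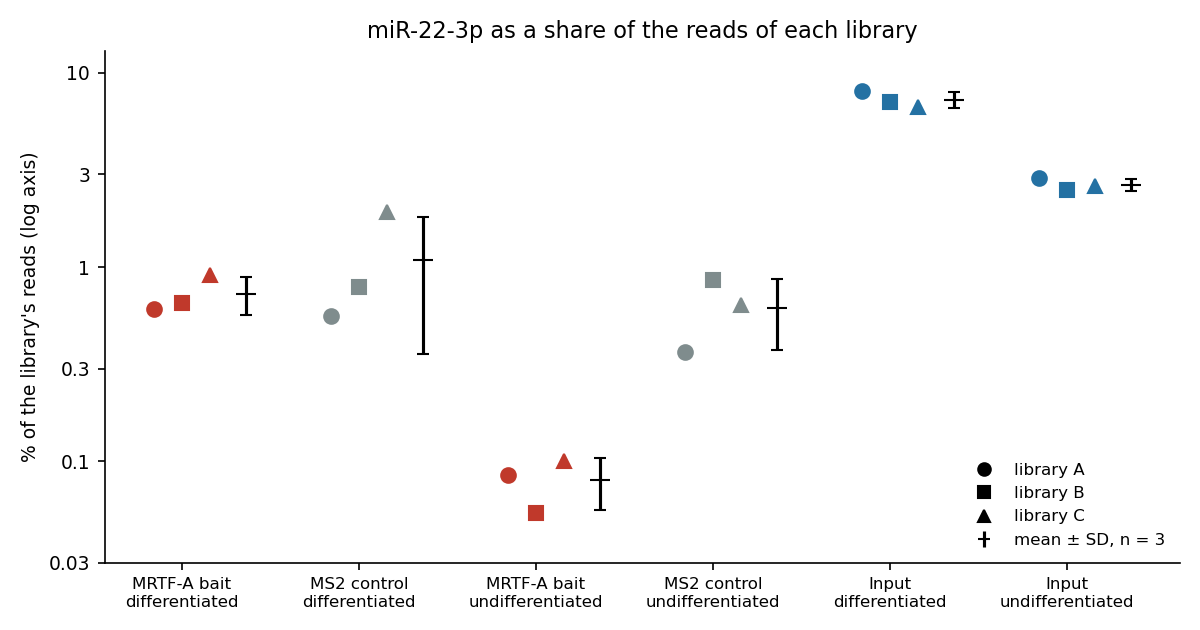
Share of each library's reads that was miR-22-3p, in percent on a log axis, with the mean ± SD of each group (n = 3). In differentiated cells the bait libraries (0.610 to 0.910%) lie within the range of the control libraries (0.558 to 1.92%), whereas in undifferentiated cells the bait libraries (0.0542 to 0.101%) lie below the control libraries (0.365 to 0.854%).

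The kind of control library moved with miR-22-3p as well. In each state the control libraries with more human-named reads had the lower miR-22-3p values, at 4184 and 6317 against 8097 CPM in differentiated cells and 2461 against 4024 and 3309 CPM in undifferentiated cells. With only the control libraries of few human-named reads, the bait minus control difference was 0.61 in differentiated and -1.20 in undifferentiated cells. With only those of more human-named reads it was 1.26 and -0.63. Each choice leaves 1 control library in 1 state, and the sign in each state was the same with either kind.

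**Figure D4:**
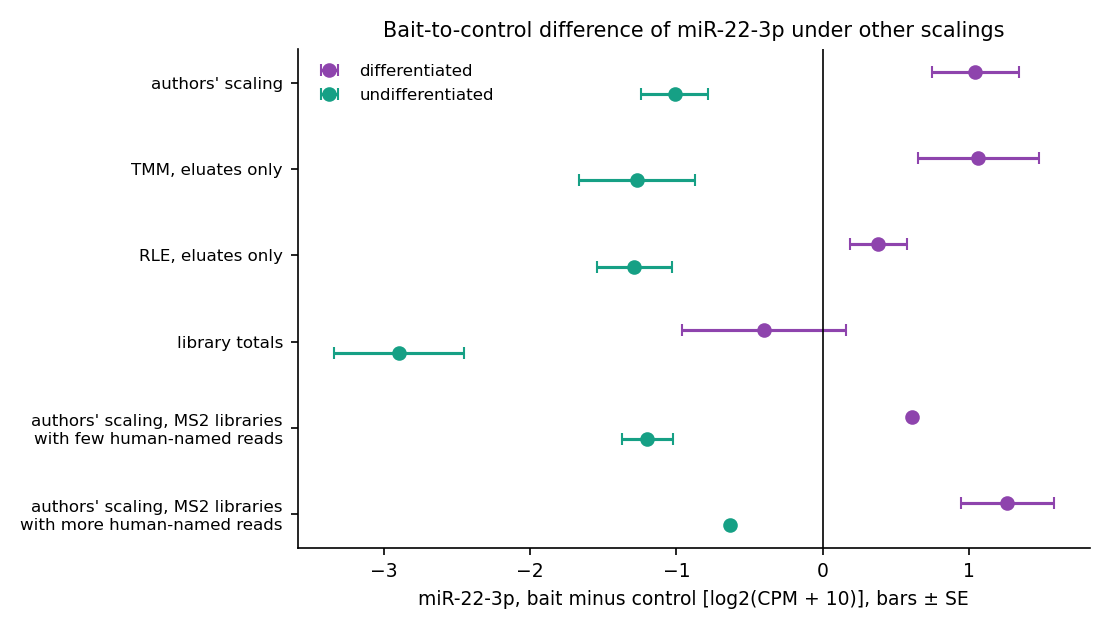
Bait minus control difference of miR-22-3p on the log2(CPM + 10) scale in differentiated and undifferentiated cells, under 4 scalings and with either kind of MS2 control library alone. Bars are ± SE, and points without a bar rest on 1 control library. The undifferentiated value is below 0 in every row, and the differentiated value is above 0 except with library totals (-0.40).

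Relative to other names, miR-22-3p lay below the median bait minus control difference in both states. Over the 169 names the median bait minus control difference was 2.37 in differentiated and 1.16 in undifferentiated cells, and miR-22-3p stood 1.33 below it in differentiated cells (log2 difference from the median of -1.33) and 2.17 below it in undifferentiated cells (-2.17). From the highest it ranked 101 in differentiated and 132 in undifferentiated cells, and 104 and 138 with library totals. Its change between the states ranked 24 of 169, or 17 with library totals. The median change of all names was 0.14, or 0.54 with library totals. These names were kept by a filter over all eluates. A name could thus pass through the deeper bait libraries alone or through control libraries alone. miR-185-5p passed with 437 and 552 bait reads in undifferentiated and differentiated cells and 0 control reads in both. hsa-miR-548az-5p passed with 0 bait reads in both. The medians and ranks depend on that choice of names, and its effect was not tested.

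**Figure D5:**
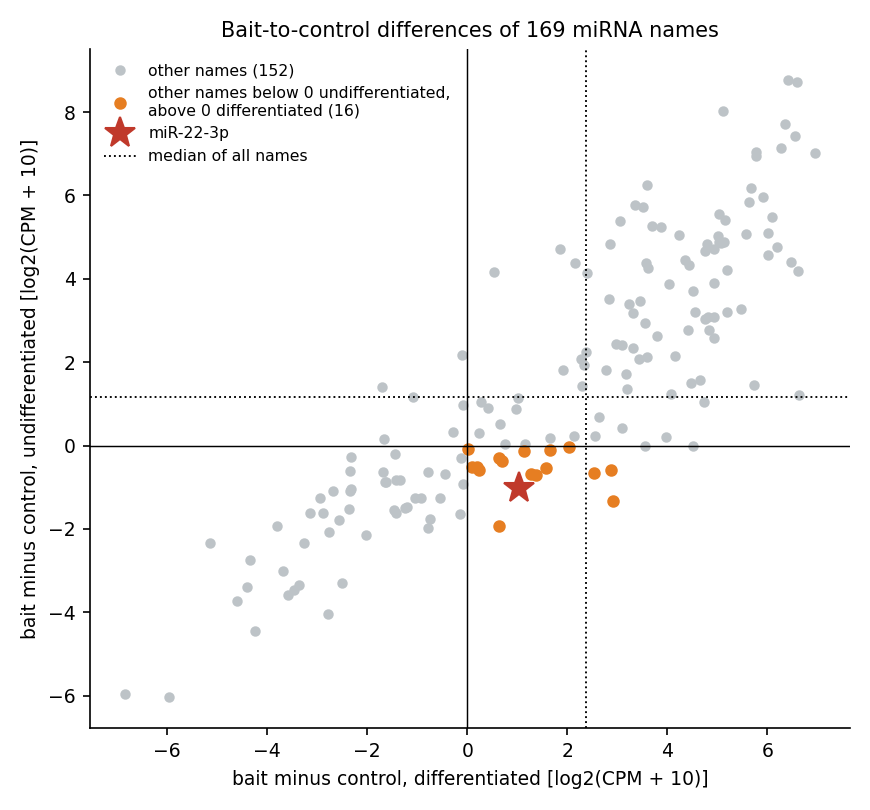
Bait minus control difference of 169 names, differentiated cells on the horizontal and undifferentiated cells on the vertical axis, both on the log2(CPM + 10) scale. Dotted lines are the medians of all names (2.37 and 1.16), orange points are the 16 other names that lie below 0 in undifferentiated and above 0 in differentiated cells, and the star is miR-22-3p at 1.04 and -1.01.

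Eluates were also set beside the input of their own state. Bait minus input was -2.15 ± 0.18 in differentiated and -4.16 ± 0.22 in undifferentiated cells (log2, SE), a difference of 2.01 between the states. The median of that difference over 305 names was 0.89, and miR-22-3p ranked 56 from the highest. Control minus input was -3.19 ± 0.31 in differentiated and -3.15 ± 0.28 in undifferentiated cells. The difference between the states was -0.04, against a median of 0.64 over the 305 names. These names were kept by a filter over all 6 groups, so a name could pass through the inputs alone. The 0.64 equals the input median of -0.64 with its sign turned, as for a name without control reads in either state. It is thus no measure of typical control recovery. In CPM under the authors' scaling the control eluates held 0.112 times the input mean of miR-22-3p in each state, and the bait eluates held 0.224 times the input mean in differentiated and 0.0547 times in undifferentiated cells. Bait and control share the input libraries in these values. With library totals bait minus input was -3.34 in differentiated and -5.08 in undifferentiated cells, and control minus input was -2.94 and -2.18. With RLE factors of all 18 libraries the states lay closer together for the bait, at -2.23 in differentiated and -2.88 in undifferentiated cells, and farther apart for the control, at -2.35 in differentiated and -1.22 in undifferentiated cells. Equal control minus input values in both states were seen under the authors' scaling and under neither of these others.

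The order of the group means in CPM was differentiated input, undifferentiated input, differentiated bait, differentiated control, undifferentiated control and undifferentiated bait, from high to low. Neighbours in that order did not overlap, but differentiated and undifferentiated control were apart by less than either group's SD at their nearest libraries (4184 and 4024 CPM). By share of reads the differentiated bait changed places with the differentiated control, and both overlapped the undifferentiated control.

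Of the names whose bait minus control difference changed sign in the same way, miR-146b-5p, known as a target of NF-kB signalling, lay farthest from 0 in its nearer state (2.92 in differentiated and -1.33 in undifferentiated cells), but its differentiated control had only 4, 0 and 16 reads. Next to miR-22-3p came miR-151-5p, encoded in an intron of Ptk2 (1.38 and -0.72), and miR-7058-5p (1.27 and -0.67), whose control eluates held 0 to 7 reads per library. miR-22-3p, with 126 to 299 control reads per library in differentiated cells and 75 to 339 in undifferentiated cells, thus rests on more reads than these. The name that changed sign by the least was miR-133b-3p (0.02 and -0.09), and just outside lay miR-709 (0.75 and 0.04) and miR-191-5p (1.16 and 0.04), both above 0 in both states. The sign of some of the 16 other names that changed this way rests on few reads. Of these 16 names, 5 were higher and 6 lower in differentiated input by limma, against 24 higher and 64 lower of 141 eluate names tested in the input. Of the 11 with a RefSeq sequence, 1 had a match to its bases 2 to 8 in the Mrtfa 3'UTR (9.09%), against 16 of 137 eluate names (11.7%).

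The profile most like that of miR-22-3p over the 18 libraries was that of miR-143-3p, a miRNA abundant in smooth muscle (Pearson r = 0.95, Spearman rho = 0.96 on log2(CPM + 10), among 304 other names). It was at 41563 CPM in differentiated and 27668 CPM in undifferentiated input, and its bait minus control difference was 0.20 in differentiated and -0.50 in undifferentiated cells. miR-26a-5p, which is known to promote myogenic differentiation through repression of Ezh2, followed (r = 0.94), with bait minus control at 1.13 and -0.13. miR-133b-3p (r = 0.92), miR-181c-5p (r = 0.91) and miR-128-3p (r = 0.90) completed the 5 names most alike. All points share libraries and scaling, and the gap between inputs and eluates carries much of each r, so these values describe likeness and carry no p.

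Other miRNAs known from growth or differentiation of heart and skeletal muscle gave the setting for the rise in input. Of 28 on the list 26 were tested, of which 12 rose, 7 fell and 7 did not pass, with a median of 0.58 against -0.64 over all 313 names, of which 50 rose (16%) and 145 fell. The largest rises were those of miR-1a-3p, with 0 reads in undifferentiated input and 7069 CPM in differentiated input, and miR-133a-3p (6.48 ± 0.56, adjusted p = 2.52e-06, limma). miR-378a-3p, whose values overlapped those of miR-22-3p in differentiated input, rose by 1.58 ± 0.33 (adjusted p = 0.00115, limma). With library totals 16 rose and 6 fell of 25 tested, against 75 that rose and 100 that fell of all 297 names tested.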

How the data were processed

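Small RNA of C2C12 cells was sequenced in 18 libraries (6 groups of 3; 50 bp reads, per the labels). Per the submitters' processing notes, reads were handled with edgeR 3.18.1, featureCounts 1.4.6, Bowtie2 2.0.13 and cutadapt 1.4.2 on GRCm38/mm10. For their settings, the sources used here give nothing. Values deposited as signal are CPM normalised by the authors. They were whole multiples of 1 step per library (100% within 0.01 read), which gave whole reads and effective sizes, and the factors equal those of TMM on the 18 libraries to within 4.41e-10. The log2 fold changes and p-values in the authors' deposited table are theirs, per the file headers.

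miRNAs were kept by filterByExpr. The input comparison used limma 3.58.1 with a trend on log2(CPM + 10) (R 4.3.3), with Benjamini-Hochberg adjustment over 313 names and a threshold of 0.05. Count models in DESeq2 1.42.0 and edgeR 4.0.16, on the recovered reads, served as alternatives. The fit was tested on simulated data. It called 98.9% of names with a true log2 change of 2, 51.1% with 1 and 3.6% with 0. Names with 0 had a median estimate of -0.10 there, whereas the input median of all names under the authors' scaling was -0.64. Whether these rates hold under the authors' scaling was not tested. Eluate differences are differences of group means with an SE from both SDs and no test. Other scalings, pseudocounts of 1 and 50, no filter, each library left out, a block on column order and either kind of control library were tried. Replicate pairs differed by more than read sampling, with chi-square over degrees of freedom never under 3.90. Python 3.11.15, pandas 2.3.3, scipy 1.17.1 and matplotlib 3.10.9 made tables and figures.

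Named miRNAs were miR-22-3p, miR-22-5p, seed sharers, the 5 highest correlations, 2 neighbours in abundance on each side, the 3 clearest and the nearest sign changes, and the largest changes of the muscle list. A further list is not reported here. The member, rule and lists were chosen with earlier results of these data known.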

Additional observations from a re-analysis of the deposited data

Results flagged for a closer look

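The bait minus control difference of miR-22-3p was flagged because its sign was opposite in differentiated and undifferentiated cells under the authors' scaling. The level itself was higher in differentiated cells in both bait (2.96) and control eluates (0.90). Every bait library lay above every control library in differentiated cells and below every control library in undifferentiated cells in CPM, and the difference between the states was 2.05 on the log2(CPM + 10) scale. The miRNA was chosen for this pattern, and the difference was not tested. By share of reads the differentiated libraries overlapped. Groups of 3 libraries were too small to look for single outlying libraries.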

How the results depend on the processing

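In the input miR-22-3p was higher in differentiated cells under all 16 alternatives, at 0.83 to 1.65, with adjusted p between 1.35e-08 and 0.112. Leaving out 1 library gave 0.83 to 1.13, and 4 of the 6 such fits missed the threshold. A replicate block on column order left the value at 0.94 and gave adjusted p = 0.112. Column order is not tied to the labels' numbers, so the letters cannot show or exclude a pairing. Deviations of same-letter libraries had correlations of -0.19, 0.14 and -0.08. The highest of any pair was 0.26, for differentiated C with undifferentiated A. miR-22-5p, never past the threshold, turned its sign to 0.33 with library totals, 0.43 with RLE, 0.45 with TMM factors of the inputs, 0.53 with edgeR and 0.54 with DESeq2, and ran from -0.27 to 0.22 with 1 library left out.

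With library totals the eluate values of miR-22-3p became -0.40 (bait minus control, differentiated), -2.90 (undifferentiated), 2.50 (change between the states), 3.19 (bait, differentiated minus undifferentiated), -3.34 and -5.08 (bait minus input, differentiated and undifferentiated) and -2.18 (control minus input, undifferentiated). With RLE factors of the eluates bait minus control in differentiated cells, its change and the bait difference between states were 0.38, 1.67 and 2.54. With RLE factors of all 18 libraries bait minus input was -2.23 in differentiated and -2.88 in undifferentiated cells, and control minus input was -2.35 in differentiated and -1.22 in undifferentiated cells. Control libraries of few human-named reads alone gave 0.61 in differentiated cells, and those of more such reads alone gave -0.63 in undifferentiated cells. The cause was not tested. Leaving out 1 library gave 0.79 to 1.26 and -1.20 to -0.85 for bait minus control in differentiated and undifferentiated cells, 1.80 to 2.27 for their change, 2.85 to 3.04 and 0.68 to 1.16 for bait and control between the states, -2.29 to -2.07 and -4.28 to -3.97 for bait minus input, and -3.41 to -2.94 and -3.32 to -2.96 for control minus input. The seed search found 0 matches to bases 2 to 8 and 1 to bases 2 to 7.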
